A study of Homo sapiens with 8 samples.

Results

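The 28 genes described here encode enzymes of cholesterol synthesis, the SREBP transcription factors with their control proteins, and other genes under SREBP control, and were taken as a listed set of symbols matched to the Ensembl identifiers of the count files. All 28 were found among the 60652 gene rows, and all 28 were among the 16606 genes that passed the filter on low counts. The set holds 8 genes of the mevalonate pathway, 11 of the squalene and sterol steps, 4 of the SREBP system, 1 sterol carrier and 4 of fatty acid synthesis. Their levels were measured by poly(A) RNA sequencing in HEK293T cells, a human embryonic kidney line, here carrying a TRE3G-GFP reporter.

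All 8 libraries came from cells transfected with a plasmid for an activator and a plasmid for a guide RNA, grown in 10% fetal bovine serum and sorted on mCherry and BFP after 2 days. dCasMINI-VPR is the transcription activator VPR fused to CasMINI, a compact Cas protein that here cannot cut DNA, and it was given with a non-targeting guide (sgNT, n = 2) or with the Tet guide (sgTet, n = 2). dCas12a-VPR carries VPR on the larger protein Cas12a, and it was given with its own non-targeting guide (crNT, n = 2) or Tet guide (crTet, n = 2). Every group therefore carried an activator, and untransfected cells were not analysed here. The labels do not say whether replicates were separate transfections, so p-values measure the spread between these libraries, which may be technical.

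Cholesterol is built from acetyl-CoA through mevalonate, the isoprenoid diphosphates, squalene and lanosterol. The SREBP proteins, encoded by SREBF1 and SREBF2, sit in the endoplasmic reticulum membrane bound to SCAP. When sterols are plentiful, INSIG proteins hold SCAP there. When sterols fall, SCAP carries SREBP to the Golgi, where it is cut, and the freed part enters the nucleus and switches on the enzymes of sterol and fatty acid synthesis as well as INSIG1 itself.

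SREBP binds sterol regulatory elements, short promoter sequences that often lie near CCAAT boxes, bound by NF-Y, and GC boxes, bound by Sp1. The 250 bases before the annotated start were searched on both strands for TCACNCCAC (N any base), a consensus form of the sterol regulatory element, for CCAAT and for GGGCGG. The RefSeq promoter table of GRCh38.p14 holds 24 of the 28 genes; ACAT2, SQLE, FDFT1 and FASN are not in it. TCACNCCAC was found in 1 of the 24, SREBF2, and in 1.09% of the 27305 genes in the table. Only exact matches to this form were counted, so a window without a match is not shown to lack an element. CCAAT was found in 20 of the 24 (83.3%), against 37.0% of all genes in the table. It was not found in the windows of CYP51A1, PMVK, SCAP and SREBF1. GGGCGG was found in 23 of the 24 (95.8%), against 46.2% of all genes. The shares over all genes were not limited to the genes tested here, so they are no comparison with other expressed genes. Overlapping matches were allowed, and a match is a description and not a measured binding site. The SREBF2 element is shown with its flanks, at chr22:41832962-41832991 on the plus strand, 143 to 114 bases before the start. Upstream stretches of INSIG1 (chr7:155297628-155297775, plus strand), MSMO1 (chr4:165327419-165327622, plus strand), HSD17B7 (chr1:162790452-162790701, plus strand) and STARD4 (chr5:111512591-111512785, minus strand) are shown for a classical feedback target, for an enzyme gene whose window holds several CCAAT boxes, and for both genes outside fatty acid synthesis with the largest differences between the dCas12a-VPR groups. Each is written 5′ to 3′ on the gene's strand, with the element or the CCAAT boxes of either strand in capitals.
SREBF2: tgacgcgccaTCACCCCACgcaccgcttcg
INSIG1: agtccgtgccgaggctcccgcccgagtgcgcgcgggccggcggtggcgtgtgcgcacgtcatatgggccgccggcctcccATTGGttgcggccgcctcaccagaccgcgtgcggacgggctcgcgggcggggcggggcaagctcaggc
MSMO1: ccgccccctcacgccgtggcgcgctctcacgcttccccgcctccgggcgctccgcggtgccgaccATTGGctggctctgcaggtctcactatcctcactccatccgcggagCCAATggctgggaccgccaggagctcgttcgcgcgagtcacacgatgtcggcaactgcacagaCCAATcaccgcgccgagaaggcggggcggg
HSD17B7: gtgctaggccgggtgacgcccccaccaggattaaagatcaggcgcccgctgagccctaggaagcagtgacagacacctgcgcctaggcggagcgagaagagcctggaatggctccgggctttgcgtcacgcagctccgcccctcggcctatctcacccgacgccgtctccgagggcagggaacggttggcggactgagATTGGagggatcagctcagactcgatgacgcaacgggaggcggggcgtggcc
STARD4: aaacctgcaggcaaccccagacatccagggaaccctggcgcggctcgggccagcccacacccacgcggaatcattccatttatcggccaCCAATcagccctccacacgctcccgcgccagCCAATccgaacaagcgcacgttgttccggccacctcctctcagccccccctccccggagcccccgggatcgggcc
INSIG1 and HSD17B7 hold 1 CCAAT box each in these stretches, STARD4 holds 2 and MSMO1 holds 3.

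Between 17474404 and 21081942 reads were assigned to genes in each library, of which 77384 to 92801 fell in the 28 genes (0.420% to 0.443% of the gene reads). Levels are given as CPM (counts over the library size after TMM adjustment), where 3 counts come to between 0.145 and 0.170 CPM. The reporter transcript EGFP was at 2.66 to 4.42 CPM with the non-targeting guides and at 708 to 1094 CPM with the Tet guides, so each library matched its guide label. Unmapped reads were 14.4% and 12.7% in the crNT libraries and 8.32% to 9.62% in the other 6. The 6 genes listed as typical of HEK293T summed to between 1104 and 1336 CPM. Of the markers of other cells, the 4 hepatocyte genes were under 1 CPM in all libraries, and PTPRC, which defines blood cells, and the adipocyte genes ADIPOQ and LEP were at 0.

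Lipogenic enzymes and INSIG1 had the highest levels of the 28 genes. Per kilobase of exon and averaged over the 8 libraries, SCD, the stearoyl-CoA desaturase, was at 145 CPM per kb (140.8 to 152.6 over libraries). ACLY, which makes cytosolic acetyl-CoA from citrate, was at 138 (130.6 to 151.2), and the ranges of these 2 genes overlapped. INSIG1 at 78.9 and FASN, the fatty acid synthase, at 71.4 CPM per kb came next and also overlapped. ACACA, the acetyl-CoA carboxylase between ACLY and FASN, was far lower, at 6.11. Among sterol enzymes the order of these strand-blind levels, which leave out reads shared with overlapping genes, as for FDPS and ACAT2, began with NSDHL (43.4), a dehydrogenase of sterol demethylation, and DHCR7 (40.9), a late sterol reductase, then PMVK (40.0), the phosphomevalonate kinase, and their ranges overlapped. FDFT1, the squalene synthase (33.9), SC5D, the sterol desaturase (32.1), and SQLE, the squalene epoxidase (31.3), formed the next overlapping run. SREBF2 was at 21.8 CPM per kb (19.5 to 23.6), SCAP at 17.7 (16.8 to 18.2) and SREBF1 at 8.07 (7.19 to 8.93), so that SREBF2 lay above SREBF1 in every library. CYP51A1, the lanosterol demethylase, was lowest at 1.06, but 83.2% of its exon length overlaps other annotated genes, so its place in the order is uncertain.

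**Figure D1:**
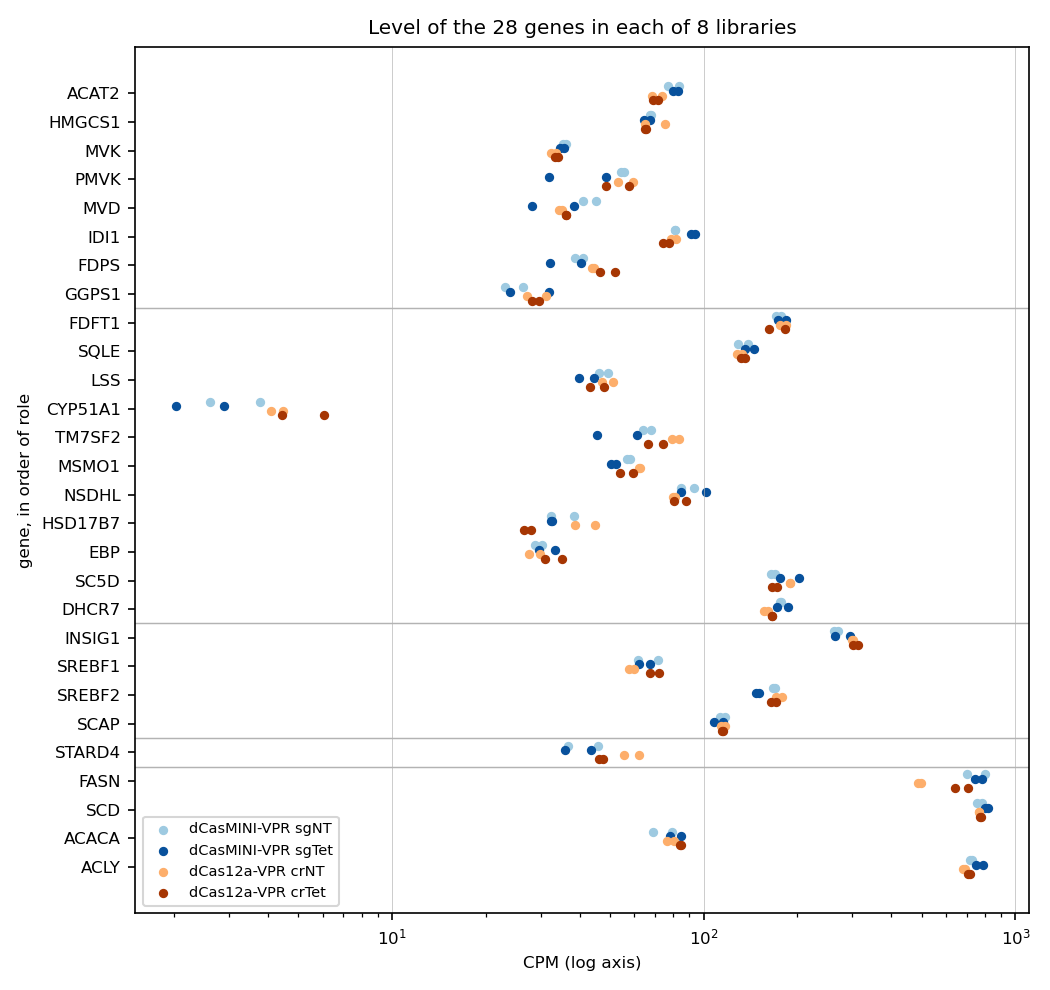
Levels of the 28 genes in CPM on a log axis, with 1 point per library in the colour of its group and lines between the role classes (mevalonate pathway, squalene and sterol steps, SREBP system, sterol transport, fatty acid synthesis). The 8 points of most genes lie close together; the crNT points of FASN (499 and 488 CPM) lie left of its other points, and CYP51A1 spreads from 2.03 to 6.04 CPM.

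Most of these genes varied little over the 8 libraries. The highest library was under 1.3 times the lowest for 19 of 28 genes, with SCD (1.08 times) and SCAP (1.09 times) the steadiest. The sgNT libraries had SCD at 780 and 755 CPM, the sgTet libraries at 818 and 801, the crNT libraries at 763 and 762, and the crTet libraries at 768 and 773. The highest was over 1.5 times the lowest for 8 genes, CYP51A1 (2.97 times), PMVK (1.86), TM7SF2 (1.82), STARD4 (1.72), HSD17B7 (1.68), FASN (1.63), FDPS (1.62) and MVD (1.61). Of the 27 genes with a mean of at least 20 CPM, 25.9% were over 1.5 times, against 13.8% of the 7967 genes tested at that level, and 70.4% were under 1.3 times, against 52.8%. The summed level of the 19 mevalonate and sterol enzymes lay between 1346 and 1428 CPM in all libraries. The summed fatty acid synthesis genes were at 2019 and 2017 CPM in crNT and at 2213 to 2448 CPM in the other 6 libraries.

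The reads were counted without regard to strand, so a gene that overlaps another loses the reads that cannot be assigned. The counts on both strands summed to 4.54 times the strand-blind count for FDPS, the farnesyl diphosphate synthase, which overlaps RUSC1-AS1 on the opposite strand. The same ratio was 2.74 for ACAT2, the cytosolic acetyl-CoA acetyltransferase, whose exons overlap opposite-strand genes including TCP1 over 52.3% of their length. It was 1.63 for MVK, the mevalonate kinase, and 1.39 for HMGCS1, the HMG-CoA synthase. For CYP51A1, 83.2% of the exon length overlaps other annotated genes, including 2 on the same strand. FDPS, CYP51A1 and HSD17B7 also have 8, 3 and 2 named pseudogenes. The levels and differences of these genes are uncertain for that reason.

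With dCas12a-VPR, FASN rose and HSD17B7 fell under the Tet guide, and the other 26 genes did not pass the test. The called genes, 2 of 28 (7.14%), stand beside a background of 6.32% of all genes tested in this comparison (3.56% higher and 2.75% lower), and the median log2 fold change was 0.01 over the 28 genes and 0.01 over all genes. FASN (ENSG00000169710.9, chromosome 17, 82078333 to 82098332, minus strand, hg38) makes palmitate from malonyl-CoA. It was at 499 and 488 CPM in crNT and at 703 and 639 CPM in crTet. The crTet libraries were both above the crNT libraries, by 0.44 ± 0.07 (log2, SE), a 1.36-fold rise, with an edgeR adjusted p of 1.87e-04. This call was kept when any of the 8 libraries was left out. The crNT libraries were the low ones of the whole series for this gene, as the 4 dCasMINI-VPR libraries were at 702 to 797 CPM.

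HSD17B7 (ENSG00000132196.15, chromosome 1, 162790702 to 162812817, plus strand) encodes a keto reductase used in removing methyl groups from the sterol ring. It was at 44.8 and 38.6 CPM in crNT and at 27.9 and 26.6 CPM in crTet, with no overlap between the groups. It was 1.53-fold lower with the Tet guide (log2 -0.61 ± 0.12, SE, edgeR adjusted p = 0.0012). The call was lost without crNT replicate 1 (log2 -0.50, adjusted p = 0.105). With dCasMINI-VPR the gene was at 38.5 and 32.3 CPM in sgNT and at 32.4 and 32.7 CPM in sgTet, which overlapped.

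STARD4 (chromosome 5, 111496033 to 111512590, minus strand), which carries sterols between membranes, was at 61.9 and 55.6 CPM in crNT and at 47.5 and 46.2 CPM in crTet. The groups did not overlap, and the log2 difference of -0.33 ± 0.11 had an adjusted p of 0.0774, short of the threshold. STARD4 passed in other fits, among them those without the filter on low counts (0.0455) and from the 4 compared libraries alone (0.0162). Without sgTet replicate 1 or sgTet replicate 2 its log2 difference stayed at -0.33. It did not pass in the edgeR fit, described below, that took out a trend with transcript length and GC (-0.23, adjusted p = 0.158). SREBF1 was at 57.7 and 59.6 CPM in crNT and at 67.2 and 71.7 CPM in crTet (log2 0.24 ± 0.10, adjusted p = 0.132). SREBF2, at 178 and 170 CPM in crNT and at 171 and 164 CPM in crTet, differed by -0.06 (log2, adjusted p = 0.742). SCAP (117 and 114 CPM against 114 and 115) and INSIG1 (300 and 301 CPM against 301 and 312) gave adjusted p-values of 0.988 and 0.88. The 95% interval of the guide effect lay within 0.5 on the log2 scale on both sides of 0 for 24 of the 28 genes, and within 1 for all 28. None of the other fatty acid synthesis genes passed with FASN. ACLY was at 681 and 687 CPM in crNT and at 704 and 716 CPM in crTet, and ACACA at 76.3 and 80.2 against 84.1 and 84.8.

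**Figure D2:**
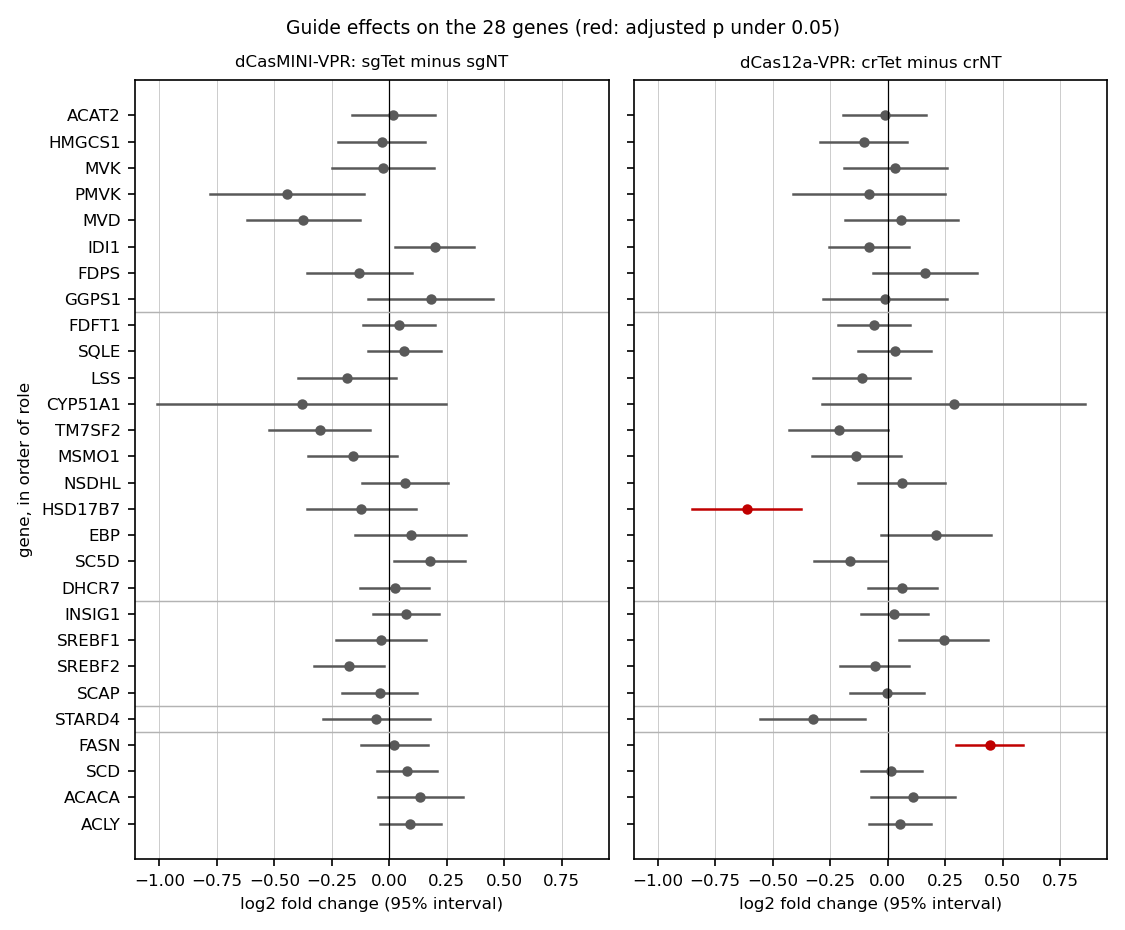
Log2 fold change of each of the 28 genes between the Tet and the non-targeting guide, with its 95% interval, for dCasMINI-VPR on the left and dCas12a-VPR on the right; red marks an adjusted p under 0.05 over all genes tested. No gene is red on the left, and FASN (0.44) and HSD17B7 (-0.61) are red on the right.

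With dCasMINI-VPR, 0 of the 28 genes passed the edgeR test between sgTet and sgNT, beside a background of 0.795% of all genes tested (0.470% higher and 0.325% lower). Unadjusted p-values were under 0.05 for 6 of the 28, beside 2046 of all 16606 genes tested, and DESeq2 also called 0. The log2 fold changes ran from -0.44 to 0.20 with a median of -0.00, where the median of all genes was 0.00. The intervals lay within 0.5 of 0 for 24 genes, and that of CYP51A1, at 2.03 to 3.79 CPM in these 4 libraries, reached a halving.

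The largest of these log2 differences belonged to PMVK, which was at 55.4 and 54.5 CPM in sgNT and at 31.9 and 48.8 CPM in sgTet (log2 -0.44 ± 0.16, adjusted p = 0.256). Without the filter on low counts it passed (-0.45, adjusted p = 0.00386). MVD, the decarboxylase that follows it in the pathway, was at 41.1 and 45.3 CPM and at 28.2 and 38.4 CPM (-0.37 ± 0.12, adjusted p = 0.16). TM7SF2, a sterol reductase, was at 63.8 and 68.0 CPM and at 45.6 and 61.2 CPM (-0.30 ± 0.11, adjusted p = 0.216). In all 3 the low values came from sgTet replicate 1, while replicate 2 lay between it and the sgNT libraries. Without sgTet replicate 2, the log2 differences were -0.78 for PMVK, -0.61 for MVD, -0.53 for TM7SF2 and 0.27 for SC5D. The sgTet group is then 1 library, assumed to vary like the other groups, and it is the library with the low values. Calls over all genes also moved widely when a library was left out, so calls from such fits are not read as a result about these genes. Without sgTet replicate 1, 0 of the 28 genes passed. These 4 genes are named here because of their values. Of the SREBP genes, SREBF2 was at 167 and 170 CPM in sgNT and at 150 and 147 CPM in sgTet (-0.17 ± 0.07, adjusted p = 0.317), with no overlap. SREBF1 was at 61.5 and 71.4 CPM and at 62.2 and 67.3 CPM (adjusted p = 0.913). SCAP was at 117 and 113 and at 108 and 115 CPM, and INSIG1 at 269 and 262 and at 295 and 263 CPM (adjusted p = 0.875 and 0.727). FASN was at 702 and 797 CPM in sgNT and at 742 and 780 CPM in sgTet, which overlapped.

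**Figure D3:**
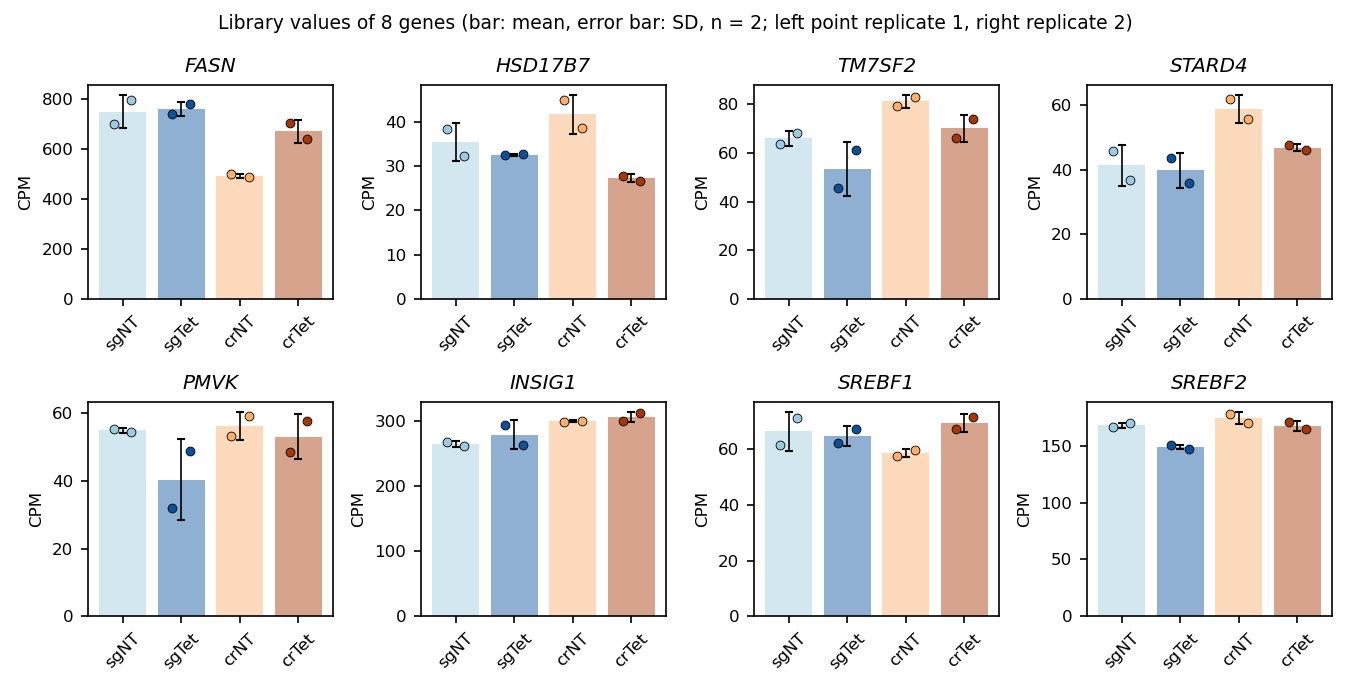
CPM of 8 of the genes in each library (points), with the group mean (bar, from 0) and SD (error bar, n = 2). The crNT points of FASN lie below those of the other groups, the crNT points of HSD17B7 and STARD4 lie above the crTet points, and the sgTet points of PMVK (31.9 and 48.8 CPM) are far apart.

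The base composition of transcripts moved with these comparisons. With dCas12a-VPR the median log2 fold change was -0.07 in the lowest of 4 equal bins of genes by GC and 0.10 in the highest, and with dCasMINI-VPR it was 0.08 and -0.11. Within single libraries, the highest GC bin minus the lowest came to -0.25 in sgTet replicate 1 and to -0.08 and -0.07 in the crNT libraries, and to between 0.04 and 0.12 in the other 5. FASN, at 65.3%, has the highest GC of the 28 genes, followed by TM7SF2 (64.2%) and MVD (63.7%), and STARD4, at 34.2%, the lowest. In a fit that took out the trend with transcript length and GC, the effects with dCas12a-VPR were 0.28 ± 0.06 for FASN (edgeR adjusted p = 0.00268) and -0.53 for HSD17B7 (0.00125), and TM7SF2 passed as well (-0.34, adjusted p = 0.00707). STARD4, at -0.23, did not pass. With dCasMINI-VPR, 0 of the 28 passed in that fit, and the effect for FASN was 0.18 ± 0.06 (edgeR adjusted p = 0.141). Of all genes tested, the same fit called 1.23% with dCasMINI-VPR and 7.62% with dCas12a-VPR, where 3 of the 28 passed. That fit was chosen after seeing the data.

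**Figure D4:**
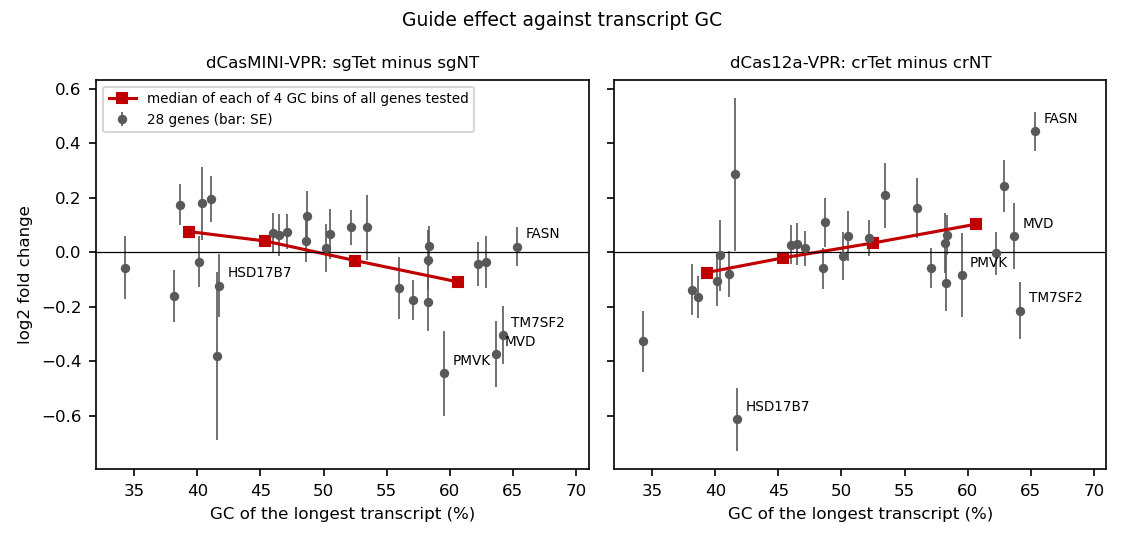
Log2 fold change (± SE) of each of the 28 genes against the GC content of its longest transcript in percent, for both activators, with the median of each of 4 GC bins of all genes tested in red. The red line falls from 0.08 to -0.11 on the left and rises from -0.07 to 0.10 on the right; FASN, at 65.3% GC, lies higher than the last red point in both panels.

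The difference between the 2 guide effects was tested directly, and 1 of the 28 genes passed, FASN, beside a background of 1.35% of all genes (0.506% higher and 0.843% lower). Its guide effect was lower with dCasMINI-VPR (0.02 ± 0.07) than with dCas12a-VPR, by -0.42 ± 0.10 on the log2 scale (edgeR adjusted p = 0.0276). It did not pass once sgNT replicate 2 was left out (adjusted p = 0.358), nor without crNT replicate 1 (0.156), crNT replicate 2 (0.148) or crTet replicate 1 (0.113), nor after the length and GC trend was taken out (-0.10, adjusted p = 0.667). For HSD17B7 the difference was 0.49 ± 0.17 (adjusted p = 0.124), so the fall seen with dCas12a-VPR was not shown to differ from the -0.12 ± 0.12 with dCasMINI-VPR. SC5D was at 170 and 165 CPM with sgNT against 202 and 176 with sgTet. With dCas12a-VPR its order was the opposite, 189 and 190 CPM with crNT against 171 and 166 with crTet, and the difference of 0.34 ± 0.11 had an adjusted p of 0.102.

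Averaged over both activators, 3 of the 28 genes passed (10.7%), beside a background of 4.11% of all genes (2.39% higher and 1.72% lower). FASN rose (0.23 ± 0.05, edgeR adjusted p = 0.005), and HSD17B7 (-0.37 ± 0.08, adjusted p = 0.00687) and TM7SF2 (-0.26 ± 0.08, adjusted p = 0.0468) fell. With dCasMINI-VPR alone FASN was at 0.02 ± 0.07 and HSD17B7 at -0.12 ± 0.12, and neither passed, while both passed with dCas12a-VPR. For the mean, PMVK was called as well without the filter (-0.27, adjusted p = 0.0145) and with the length and GC trend taken out (-0.34, adjusted p = 0.0148). The mean level of TM7SF2 was lower with the Tet guide under each activator. It was at 79.3 and 83.1 CPM in crNT and 66.1 and 74.0 CPM in crTet (-0.21 ± 0.11, edgeR adjusted p = 0.258). With dCasMINI-VPR its log2 difference was -0.30 ± 0.11 (adjusted p = 0.216). Neither guide effect of TM7SF2 passed alone in the main fit, so its call here is that of the mean. Its call was lost without any of 6 of the 8 libraries (adjusted p up to 0.173) and with DESeq2 (0.064). That of HSD17B7 was lost without sgNT replicate 1 (0.109) or crNT replicate 1 (0.112), and that of FASN without sgNT replicate 1 (0.124).

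Between the activators, averaged over both guides, 7 of the 28 genes differed (25.0%), beside a background of 10.0% of all genes tested (4.83% higher and 5.20% lower). FASN and ACAT2 were higher with dCasMINI-VPR, and STARD4, TM7SF2, FDPS, CYP51A1 and INSIG1 were lower, so the called genes went in both directions and the median over the 28 was -0.01, against 0.00 for all genes. In each group an activator plasmid goes with its own guide type, so the protein and its guide scaffold cannot be told apart. FASN was higher by 0.39 ± 0.05 (log2, SE, edgeR adjusted p = 1.15e-06), and its low libraries were those of crNT. STARD4 was at 45.9, 36.8, 43.6 and 36.0 CPM with dCasMINI-VPR and at 61.9, 55.6, 47.5 and 46.2 CPM with dCas12a-VPR, with no overlap (-0.37 ± 0.08, adjusted p = 0.00211). TM7SF2 (chromosome 11, 65111845 to 65116384, plus strand) was at 45.6 to 68.0 CPM with dCasMINI-VPR and at 66.1 to 83.1 CPM with dCas12a-VPR (-0.35 ± 0.08, adjusted p = 0.00255). These 3 calls were kept when any single library was left out. In the same comparison 3 of the 6 genes typical of HEK293T differed, and of the markers of other cells LUM, a fibroblast gene, passed, at 0.256 to 0.737 CPM with dCasMINI-VPR and at 1.08 to 1.45 CPM with dCas12a-VPR. PDGFRA, the other fibroblast gene that was tested, lay the opposite way, at 0.581 to 1.59 CPM and at 0.410 to 0.829 CPM (adjusted p = 0.244). The 4 fibroblast genes summed to between 0.919 and 2.54 CPM over libraries, and their part in these differences was not tested.

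The other 4 calls were less stable. INSIG1, the feedback protein of the SREBP system (chromosome 7, 155297776 to 155310235, plus strand), was at 269, 262, 295 and 263 CPM with dCasMINI-VPR and at 300, 301, 301 and 312 CPM with dCas12a-VPR. The groups did not overlap, and the difference of -0.16 ± 0.05 (adjusted p = 0.0414) passed in 1 of the 8 fits with a library left out, the one without sgTet replicate 1, and had adjusted p-values of 0.0546 to 0.189 in the others. FDPS was at 38.6, 40.9, 40.5 and 32.1 CPM against 44.4, 43.9, 46.7 and 52.1 CPM (-0.30 ± 0.08, adjusted p = 0.0124). That call was lost without sgNT replicate 1 (0.0614), crNT replicate 1 (0.0576) or crTet replicate 2 (0.07). CYP51A1 was at 2.03 to 3.79 CPM against 4.10 to 6.04 CPM (-0.75 ± 0.21, adjusted p = 0.017), lost without sgNT replicate 2 (0.104), crNT replicate 2 (0.0712) or crTet replicate 2 (0.103). ACAT2, at 77.0 to 83.4 CPM against 68.5 to 73.3 CPM (0.19 ± 0.06, adjusted p = 0.0417), was lost without any of 6 libraries (up to 0.243). FDPS, CYP51A1 and ACAT2 are among the genes whose counts are uncertain through overlapping genes. SREBF1, SREBF2 and SCAP did not pass (adjusted p = 0.789, 0.186 and 0.859).

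**Figure D5:**
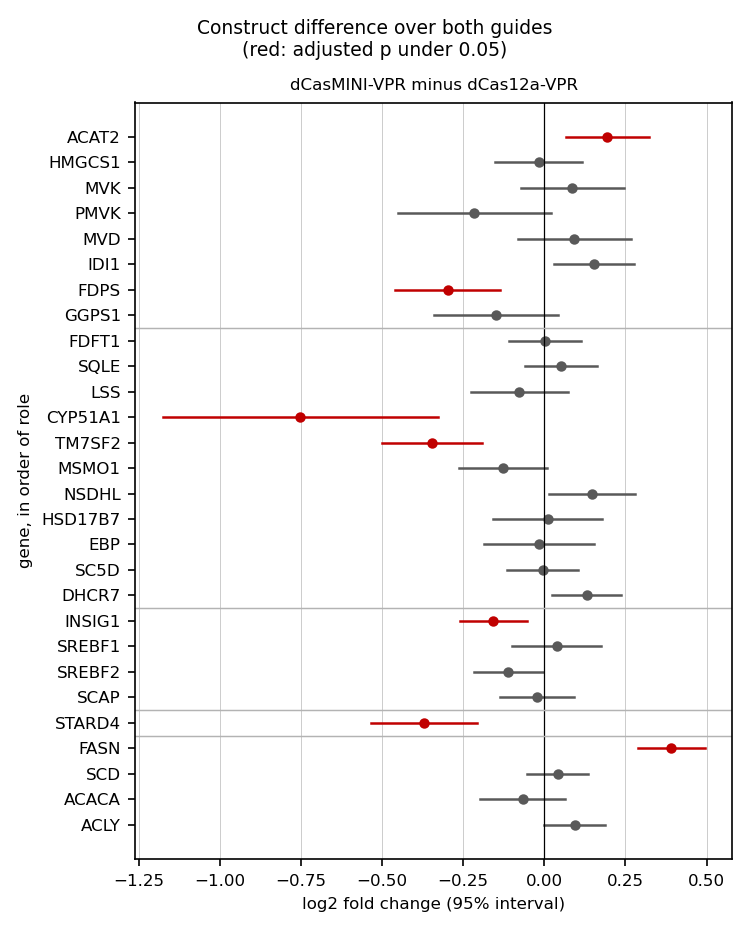
Log2 fold change of each of the 28 genes between dCasMINI-VPR and dCas12a-VPR over both guides, with its 95% interval; red marks an adjusted p under 0.05 over all genes tested. FASN (0.39) and ACAT2 (0.19) are red to the right of 0, and STARD4 (-0.37), TM7SF2 (-0.35), FDPS (-0.30), CYP51A1 (-0.75) and INSIG1 (-0.16) to the left.

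Neighbouring genes of the pathway were read from 4 further lists. They hold 10 tested genes that regulate SREBP or degrade sterol enzymes, 15 other SREBP or lipogenic targets, 10 genes of LXR action, sterol efflux and storage, and 12 of the non-sterol isoprenoid branch. With dCasMINI-VPR, 0 of these 47 genes passed the edgeR guide test, while 7 had an unadjusted p under 0.05 and DESeq2 called 0. With dCas12a-VPR 1 of 47 passed, beside the 6.32% of all genes, while 15 had an unadjusted p under 0.05 and DESeq2 called 3. Of all 16606 genes tested, the unadjusted edgeR p was under 0.05 for 2046 with dCasMINI-VPR and for 3287 with dCas12a-VPR. The share of all genes that DESeq2 called is not given here. ABCG1, a sterol efflux transporter under LXR control, was at 19.4 and 17.9 CPM in crNT and at 11.1 and 12.6 CPM in crTet, and it fell (-0.65, adjusted p = 0.00814). Its call was lost without crNT replicate 1 (0.184), crNT replicate 2 (0.0505) or crTet replicate 1 (0.0978). The medians of the 4 lists with dCas12a-VPR were -0.13, -0.12, -0.13 and -0.03, against 0.01 for all genes. With dCasMINI-VPR they were 0.02, 0.09, -0.07 and 0.06, against 0.00 for all genes.

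Averaged over both activators, ELOVL6, a fatty acid elongase, rose with the Tet guide (0.26, edgeR adjusted p = 0.0284), and FADS1, a fatty acid desaturase (-0.18, adjusted p = 0.0405), and MYLIP, a ubiquitin ligase induced by LXR (-0.41, adjusted p = 0.0401), fell. ELOVL6 was at 43.8 and 51.1 CPM in sgNT and at 62.8 and 58.7 CPM in sgTet, and at 49.8 and 48.7 CPM in crNT and at 53.2 and 57.2 CPM in crTet. It lost its call without any of 4 libraries, FADS1 without any of 6 and MYLIP without any of 7. Between the activators 6 of the 47 passed, against the 10.0% of all genes. RNF145 and MBTPS2 of the regulators, FADS1, and NPC2 and ABCG1 of the efflux and storage list were lower with dCasMINI-VPR, by -0.16 to -0.40 on the log2 scale, and PDSS1, which makes the ubiquinone side chain, was higher (0.36, adjusted p = 0.0237). Each of these 6 calls was lost when some single library was left out, crNT replicate 1 among them in all 6 cases.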

How the data were processed

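RNA was sequenced from 8 libraries in 4 groups of 2. The authors deposited raw counts of reads per gene from STAR with hg38, per the submitters' processing notes; the STAR version is not given in the sources used here. The strand-blind count column was used. The 4 totals that name no gene, 25.3% to 29.9% of reads, entered neither the library sizes nor the tests. The 28 genes, the 4 further lists and the markers were chosen with earlier results of these data known; 1 gene of the further lists is not reported here.

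Counts were fitted with edgeR 4.0.16 in R 4.3.3 by its two-sided quasi-likelihood test, in 1 model of all 8 libraries with 4 group means, TMM factors and the edgeR filter on low counts. The comparisons were the guide effect with each activator, their difference and mean, and the construct difference. P-values were Benjamini-Hochberg adjusted over 16606 genes, with calls at 0.05. The biological coefficient of variation was 8.04%, with 4 residual and a median of 28.9 prior degrees of freedom. The text names SREBF1, SREBF2, SCAP and INSIG1, every called gene of the 28, and up to 3 called genes per further list and comparison; other genes were named after their values were seen, or are given as members.

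Alternatives were other scaling, other filters, DESeq2 1.42.0, a replicate block, the compared libraries alone, each library left out, and, chosen after seeing the data, a spline of transcript length and GC content fitted to each library. The fit was tested on simulated data: with dCas12a-VPR, 81% of 1.5-fold and 96% of 2-fold changes were recovered, with 17 false calls. The simulated data held no GC trend, and no genes as low as CYP51A1 were changed, so these shares need not hold for the real libraries or for that gene. Replicates of 1 group differed by more than sampling noise (chi-square per degree of freedom of 3.12 to 12.5), so none was merged.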

Additional observations from a re-analysis of the deposited data

Results flagged for a closer look

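FASN, the fatty acid synthase, was marked because its response to the Tet guide differed between the activators in the test of the difference itself. The guide effect with dCasMINI-VPR minus that with dCas12a-VPR was -0.42 ± 0.10 (log2, SE, n = 2 libraries per group, edgeR adjusted p = 0.0276). Both sgTet libraries (742 and 780 CPM) lay within the range of the sgNT libraries (702 and 797 CPM), while both crTet libraries (703 and 639 CPM) lay above the crNT libraries (499 and 488 CPM). After the trend with length and GC was taken out, the difference was -0.10 (edgeR adjusted p = 0.667). The guide effects in that fit were 0.18 ± 0.06 with dCasMINI-VPR (adjusted p = 0.141) and 0.28 ± 0.06 with dCas12a-VPR (0.00268). FASN has the highest GC of the 28 genes, and the part of GC in its difference was not tested. No group had enough libraries for a search for single outlying libraries.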

How the results depend on the processing

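With 2 libraries per group, single libraries limit these results. The number of the 28 genes called with a library left out ran from 0 to 4 for the guide effect with dCasMINI-VPR (0 with all), from 1 to 3 with dCas12a-VPR (2), from 0 to 4 for the difference (1), from 0 to 5 for the mean (3) and from 3 to 9 for the construct difference (7). With dCasMINI-VPR, 1 gene (PMVK) was called without the filter and 1 with the replicate block. With the length and GC trend removed, 0 were called for the difference and 11 for the construct difference, where 1.17% and 15.3% of all genes were called in that fit.

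The replicate block gave 3 calls with dCas12a-VPR (STARD4 added, adjusted p = 0.0396), 1 for the difference, 4 for the mean (PMVK added, 0.0378) and 7 for the construct difference; PMVK was also the gene called with dCasMINI-VPR (0.0332). Over all genes it called 1255, 400, 786, 1834 and 174 in that order. The same-numbered libraries deviated together only weakly (correlations of 0.0388 and 0.0739), so the numbers were not taken as pairs.

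Counts of all genes moved more. With dCasMINI-VPR they were 132, 276 without the filter, 204 with the trend removed, 84 from the 4 compared libraries, and 50 to 1475 with a library left out. With dCas12a-VPR they were 1049, 1785 from the 4 compared libraries, and 135 to 1965. For the difference they were 224, 450 without the filter, 400 with the replicate block, 347 with that block within each construct, and 28 to 1835. For the mean they were 683, 1147 with the trend removed, and 207 to 1499, and for the construct difference 1665, 2533 and 839 to 2403. Scaling by library size alone lowered the share of called genes that were higher from 59.1% to 45.9% with dCasMINI-VPR, from 56.4% to 41.9% with dCas12a-VPR and from 58.1% to 35.9% for the mean. Removing the trend moved it to 72.1% with dCasMINI-VPR and 45.8% with dCas12a-VPR, and for the construct difference from 48.2% to 61.5%.

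A tally was made of the genes called in a comparison by the main fit, with SREBF1, SREBF2, SCAP and INSIG1 in every comparison. Of its 331 values under the settings with all libraries, 319 kept their direction and side of the threshold, 6 lost their call and 6 turned sign. Calls gained by other genes were not counted. Among these were STARD4 with dCas12a-VPR and PMVK with dCasMINI-VPR without the filter, and TM7SF2 with dCas12a-VPR with the trend removed. With the trend removed, SREBF1 (0.10) and SCAP (0.092) turned with dCasMINI-VPR, SREBF2 (0.031) and SCAP (0.19) for the difference, and SCAP (0.019) for the construct difference. INSIG1 turned with dCas12a-VPR under library size alone (-0.0023). With a library left out, 244 of 336 values were unchanged in this sense, 81 lost their call and 11 turned sign. Those that turned ran, with dCasMINI-VPR, from -0.14 to 0.074 for SREBF1, from -0.093 to 0.0075 for SCAP and from -0.011 to 0.15 for INSIG1. They ran from -0.023 to 0.016 for SCAP with dCas12a-VPR. For the difference they ran from -0.088 to 0.012 for SCAP and from -0.038 to 0.12 for INSIG1. For the mean they ran from -0.049 to 0.0014 for SCAP. For the construct difference they ran from -0.017 to 0.089 for SREBF1 and from -0.049 to 8.6e-04 for SCAP. The cause of these changes was not tested.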
